A study of Mus musculus with 47 samples.

Results

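The cytochrome P450 genes of the mouse olfactory epithelium were taken as every gene whose symbol is Cyp followed by a family number, a subfamily letter and a gene number. Of 94 such symbols among the 54532 genes of the deposited tables, 46 averaged at least 0.1 TPM (transcript abundance corrected for length and scaled to the same total in each library) over all 47 libraries and are described here. The other 48 fell below that level, and 8 of these were listed at 0 TPM in every library. The level rule used the mean over all ages and both genotypes, so it did not use any difference between groups. The members nearest the threshold were Cyp11a1, Cyp27b1 and Cyp2j8 at means of 0.188, 0.166 and 0.15 TPM. The nearest symbols left out were Cyp2b9, Cyp2b13 and Cyp2a22 at 0.0877, 0.0874 and 0.0798 TPM.

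P450 enzymes are haem proteins that insert an oxygen atom into their substrates, using electrons passed on by P450 reductase or cytochrome b5. Members of families 1 to 3 act mainly on foreign compounds, and the other families act on fatty acids, retinoids, vitamin D, steroids, sterols and bile acids. In the nose they are known mostly from sustentacular cells, the supporting cells around the sensory neurons, and from Bowman's glands, which secrete the olfactory mucus. Inhaled odorants and toxicants reach both cell types.

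Olfactory epithelium had been collected on postnatal days 0, 3, 5, 7, 10, 14 and 21 (P0 to P21) from mice labelled OIVT;Kir2.1 (Kir) and mice labelled C57BL/6J (WT). Kcnj2 encodes Kir2.1, a potassium channel of the inward-rectifier class, and the sources used here do not give the promoter or the cells in which the Kir allele is active. Both genotypes were sampled at every age, with 3 or 4 libraries in each of the 14 groups, 24 Kir and 23 WT libraries in all. No treatment was given in the labels, and whether libraries correspond to separate animals is not stated, so p-values reflect the spread among libraries only, and some of that may be technical.

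Gene counts ran from 8107547 to 30385151 per library. Kcnj2 averaged 142 ± 30.1 TPM in Kir libraries and 14.3 ± 1.40 TPM in WT libraries at P0 (SD, n = 4 each), and it was higher in Kir over the 7 ages (log2 fold change 3.63 ± 0.20, SE). Kcnj2 in 5 Kir libraries (replicate 3 at P3, replicates 1 and 4 at P7, replicates 1 and 2 at P21) was well below the other Kir libraries of the same age, and P450 results were recomputed without them. The sample titles carried a prefix whose meaning is not given (cry4 at P0, P3, P14 and P21, cry6 at P5 and P10, all 3 prefixes at P7), and it was a term in the models unless stated. The labelled tissue was checked against marker lists: 15 sustentacular genes other than P450 genes summed to 10397 to 11831 TPM in Kir and 9068 to 9888 TPM in WT at P21. Liver, the organ best known for P450 genes, left little trace: 10 hepatocyte genes summed to at most 9.52 TPM in any library, in WT at P7. Alb, the gene of serum albumin, was listed at 0 in 25 libraries and reached at most 0.71 TPM.

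P450 transcripts were a sizeable part of the tissue's messenger RNA. At P21 the 46 members summed to between 14596 and 14957 TPM in the 3 Kir libraries, 1.48% ± 0.018 of all TPM (SD, n = 3), and to between 11823 and 14441 TPM in the 3 WT libraries, 1.29% ± 0.137 (SD, n = 3). At P0 they summed to between 2698 and 5260 TPM in the 4 Kir libraries, 0.378% ± 0.129, and to between 2484 and 4508 TPM in the 4 WT libraries, 0.342% ± 0.096 (SD, n = 4 each). Within each genotype the P21 libraries all lay above the P0 libraries. By TPM the Kir and WT libraries overlapped at P0 and did not overlap at P21. Summed as CPM from the counts they overlapped at P21 too, at 14611, 14250 and 13737 in Kir and 11267, 10741 and 14404 in WT libraries.

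Over all 47 libraries 3 genes held most of this RNA. Cyp2a5, an enzyme of coumarin and nicotine metabolism, averaged 3267 TPM, Cyp2g1, a P450 known for its restriction to the olfactory mucosa, 2457 TPM, and Cyp2f2, an enzyme that activates naphthalene and related aromatics, 1133 TPM. In every group these 3 made up 90.3% to 92.5% of the summed P450 level on average. Cyp1a2, known for oxidising aromatic amines and caffeine, followed at 222 TPM. The next in order were Cyp4v3, a fatty-acid hydroxylase (57.1 TPM), Cyp2j6, an arachidonic acid epoxygenase (53.0 TPM), Cyp4b1, which activates furans and other small foreign compounds (43.1 TPM), and Cyp4f15, a fatty-acid hydroxylase (36.6 TPM). Cyp39a1, an oxysterol hydroxylase of bile acid synthesis, and Cyp20a1, an orphan P450, closed the highest 10 at 25.7 and 23.9 TPM. The other 36 members averaged 22.5 TPM or less, and 13 of them less than 1 TPM. The order of the highest 2 depended on the measure: by TPM Cyp2a5 exceeded Cyp2g1 in 46 of 47 libraries, but by counts per kilobase of exon it did so in 20 of 47.

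**Figure D1:**
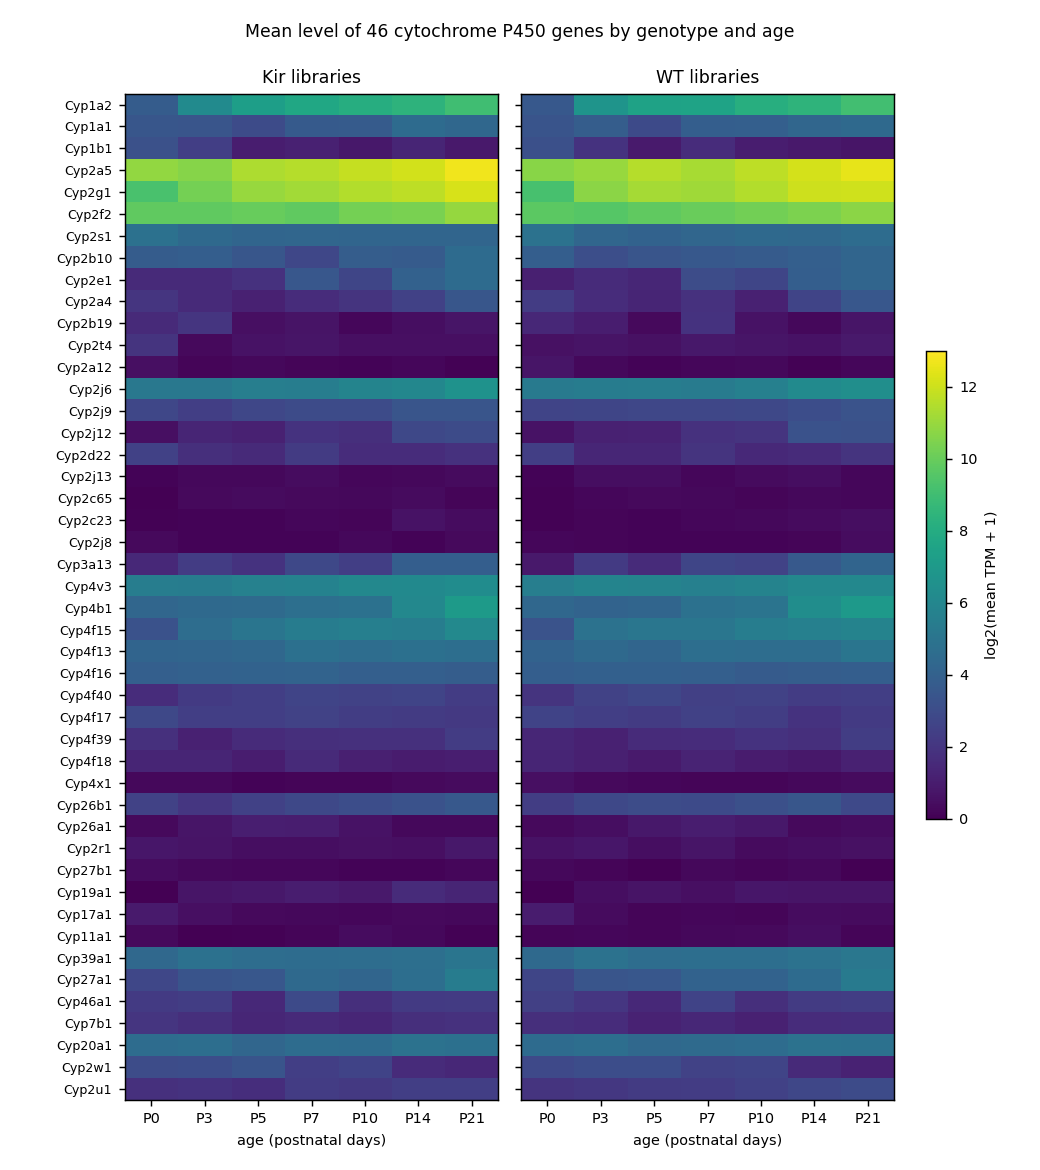
Mean level of the 46 P450 genes in each group, as log2(mean TPM + 1), with Kir groups on the left, WT groups on the right and the 7 ages (postnatal days) from left to right. Genes are grouped by enzyme family and role. The rows of Cyp2a5, Cyp2g1 and Cyp2f2 stand above the rest at every age, and Cyp1a2 is the row that changes most from dark to bright.

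The highest members were neighbours in the genome. Coordinates come from the GENCODE M21 annotation of GRCm38 (mm10). A cluster of 9 members, from Cyp2s1 to Cyp2t4, spanned 1356.2 kb of chromosome 7 (chr7:25802475-27158668) and held 92.05% of the summed P450 level. Cyp2g1 (chr7:26808892-26821205, plus strand) and Cyp2a5 (chr7:26835305-26843548, plus strand) began 26.4 kb apart, and Cyp2f2 (chr7:27119909-27133660, plus strand) lay beyond them. The members between and around these genes were far lower: Cyp2b19 averaged 1.07 TPM, Cyp2a12 0.215 TPM and Cyp2t4 0.760 TPM. The Cyp4f cluster on chromosome 17 (6 members), the Cyp2j cluster on chromosome 4 (5 members) and the Cyp1a pair on chromosome 9 held 1.13%, 0.84% and 3.14% of the level.

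**Figure D2:**
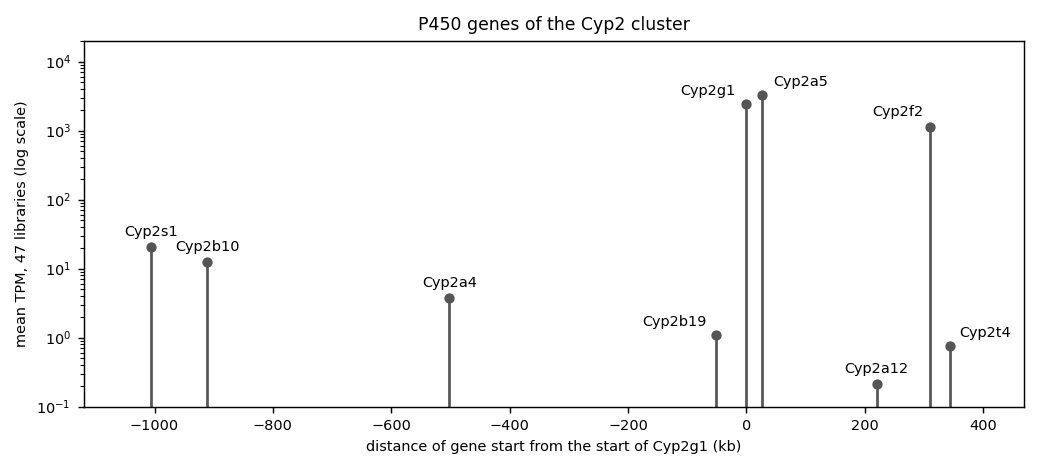
Mean TPM over the 47 libraries (log scale) of the 9 P450 genes of the Cyp2 cluster on chromosome 7, against the distance of each gene's start from that of Cyp2g1 in kb. Cyp2g1, Cyp2a5 and Cyp2f2 each average more than 1000 TPM, while the genes beside them average 0.215 to 20.64 TPM.

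Cyp2a5 and Cyp2a4 are near-identical copies in this cluster with very different levels. Cyp2a4, a steroid 15-alpha-hydroxylase in mouse, averaged 3.75 TPM against 3267 TPM for Cyp2a5. Of the 50-base stretches of their transcripts, 37.03% in Cyp2a5 and 38.78% in Cyp2a4 also occur in another gene, in both cases mostly in the other copy, so their values rest partly on how the authors' counting placed shared reads. Their start regions, taken from RefSeq on GRCm38.p6 as 250 bases before to 50 bases after the start, are shown because they differ little between genes of such unlike level. Over 299 aligned bases they were 98.33% identical, with 5 substitutions, T18C, C130T, A160G, T204G and C269T, which give the Cyp2a5 base, the position counted from the 5′ end of the Cyp2a5 window, and the Cyp2a4 base. The capitals mark these bases in both sequences, Cyp2a5 at chr7:26835089-26835388 and Cyp2a4 at chr7:26306942-26307241, both on the plus strand, 5′ to 3′.
Cyp2a5: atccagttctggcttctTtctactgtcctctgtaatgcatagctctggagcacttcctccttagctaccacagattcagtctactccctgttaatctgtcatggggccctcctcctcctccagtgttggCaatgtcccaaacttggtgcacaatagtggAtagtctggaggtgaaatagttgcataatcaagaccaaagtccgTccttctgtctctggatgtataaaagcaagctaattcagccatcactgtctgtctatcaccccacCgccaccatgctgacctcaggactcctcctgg
Cyp2a4: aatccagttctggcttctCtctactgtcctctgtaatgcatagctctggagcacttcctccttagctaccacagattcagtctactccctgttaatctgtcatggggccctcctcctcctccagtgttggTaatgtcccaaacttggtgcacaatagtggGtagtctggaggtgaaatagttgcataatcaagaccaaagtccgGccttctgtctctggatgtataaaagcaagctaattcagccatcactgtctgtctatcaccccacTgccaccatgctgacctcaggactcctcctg
Nuclear factor I proteins are known regulators of nasal P450 genes, and TTGGCA matches only a part of their palindromic recognition site. Searched on both strands, TTGGCA occurred once in the Cyp2a5 window, at bases 126 to 131, and the substitution C130T lies in it. It did not occur in the Cyp2a4 window. The full palindromic site occurred in neither window. Whether any of the 5 substitutions bears on the level of either gene was not tested.

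Windows of the same 300 bases were found for 37 of the 46 members, 42 windows in all. TTGGCA occurred in 21.43% of the member windows and in 14.12% of all 32851 RefSeq windows. GCGTG, the core bound by the dioxin receptor AHR, occurred in 33.33% of member windows and in 32.39% of all windows. The full palindromic site of nuclear factor I occurred in 0% of member windows and in 0.04% of all windows. These are matches of letters and not measured binding. The windows of the 3 members with the greatest rise in WT between P0 and P21 are shown, with TTGGCA or its reverse complement in capitals: Cyp1a2 at chr9:57683606-57683905 on the minus strand, Cyp3a13 at chr5:137921570-137921869 on the minus strand and Cyp2e1 at chr7:140763569-140763868 on the plus strand.
Cyp1a2: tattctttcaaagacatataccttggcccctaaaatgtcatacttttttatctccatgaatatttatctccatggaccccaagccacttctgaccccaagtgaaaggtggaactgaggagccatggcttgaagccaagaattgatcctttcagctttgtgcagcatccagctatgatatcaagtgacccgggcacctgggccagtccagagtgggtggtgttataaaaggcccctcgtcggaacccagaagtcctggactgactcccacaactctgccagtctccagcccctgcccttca
Cyp3a13: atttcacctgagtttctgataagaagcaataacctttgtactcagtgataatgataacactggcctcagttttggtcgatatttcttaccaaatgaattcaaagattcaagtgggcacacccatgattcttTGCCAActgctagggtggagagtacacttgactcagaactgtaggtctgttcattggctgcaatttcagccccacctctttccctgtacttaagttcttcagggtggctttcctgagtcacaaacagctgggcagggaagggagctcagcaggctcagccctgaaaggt
Cyp2e1: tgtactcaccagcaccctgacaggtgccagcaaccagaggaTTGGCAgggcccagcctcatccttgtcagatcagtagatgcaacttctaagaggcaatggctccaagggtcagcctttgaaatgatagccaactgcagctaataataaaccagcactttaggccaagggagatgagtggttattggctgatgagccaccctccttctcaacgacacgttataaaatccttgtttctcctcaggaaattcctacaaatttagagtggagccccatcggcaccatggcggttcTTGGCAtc
Cyp3a13 held 1 match of TTGGCA, Cyp2e1 2 matches and Cyp1a2 none. All 3 windows held the shorter letters TTGGC and their reverse complement GCCAA. The share of all windows that hold these shorter letters was not counted. Of the 2 Cyp2e1 matches, 1 lay after the start, at the end of the window and past an ATG.

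Between P0 and P21 the P450 genes changed in both directions, with more rises than falls. Of the 46 members 40 had enough counts to be tested. In WT, 17 rose and 6 fell at P21 against P0 (edgeR quasi-likelihood test, Benjamini-Hochberg adjusted p below 0.05 over 19927 genes), so 57.5% were called, against 50.8% of all genes tested. In Kir, 20 rose and 7 fell, 67.5% against 48.9% of all genes. The share that rose, 17 of 40 in WT, stands beside 24% of all genes, and the share that fell, 6 of 40, beside 26.8%. In Kir these background shares were 22.9% and 25.9%. The median log2 change over the tested members was 0.44 in WT and 0.62 in Kir, beside -0.05 and -0.04 over all genes. In bulk tissue a larger share of P450-expressing cells and more RNA per such cell cannot be told apart. Sustentacular markers other than P450 genes moved in the same direction: 10 of 15 rose and 2 fell in WT, and their sum was 10397 to 11831 TPM in Kir P21 and 9068 to 9888 TPM in WT P21 libraries, against 2694 to 3363 TPM in Kir P0 and 2316 to 3674 TPM in WT P0 libraries. Bowman's gland markers rose for 6 of 12 genes and fell for 2 in WT, with sums of 20626 to 26019 TPM in Kir P21 and 23365 to 31827 TPM in WT P21, against 5991 to 10065 TPM in Kir P0 and 4390 to 9088 TPM in WT P0. The gland sum includes Bpifa1 (3181 to 12358.5 TPM over all libraries), a gene also listed for secretory respiratory cells. The part of sustentacular cells or of Bowman's glands in the P450 changes was not tested.

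Among the CYP1 genes, Cyp1a2 had the greatest rise of all members. It had 532, 535 and 472 TPM in Kir P21 and 543, 502 and 569 TPM in WT P21 libraries, against 7.96, 17.7, 18.5 and 7.24 TPM in Kir P0 and 9.90, 13.2, 12.2 and 8.96 TPM in WT P0 libraries. The ages were far apart and the genotypes overlapped at each. Cyp1a1, its neighbour on chromosome 9 and the classic target of the dioxin receptor, rose by a log2 fold change of 0.92 ± 0.33 in WT (SE; adjusted p = 0.0177). Cyp1b1, an oestrogen- and retinoid-oxidising enzyme known from connective tissue and eye, went the other way. It had 0.88, 0.84 and 0.90 TPM in Kir P21 and 0.58, 0.78 and 0.66 TPM in WT P21 libraries, against 12, 2.70, 11.9 and 7.09 TPM in Kir P0 and 11.8, 6.30, 7.30 and 7.17 TPM in WT P0 libraries, without overlap between the ages (log2 fold change -3.63 ± 0.61 in WT, adjusted p = 7.82e-06).

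Of the 10 tested genes of subfamilies CYP2A, B, E, F, G, S and T, 4 rose and 2 fell in WT. Among all genes 24% rose and 26.8% fell. Cyp2g1 had 5213, 5054 and 4202 TPM in Kir P21 and 3997, 3635 and 4969.8 TPM in WT P21 libraries, against 495, 874, 783 and 336 TPM in Kir P0 and 424, 848, 539 and 549 TPM in WT P0 libraries. Every P21 library lay above every P0 library, as it did for Cyp1a2. Cyp2a5 began at a higher level and varied more at birth: 6339.5, 6721 and 7282 TPM in Kir P21 and 5588, 5475 and 6405 TPM in WT P21 libraries, against 822, 3226, 2450.4 and 1228 TPM in Kir P0 and 1302, 2444, 1983 and 945 TPM in WT P0 libraries. Its log2 fold change in WT was 1.79 ± 0.30, below the 2.73 ± 0.24 of Cyp2g1 (adjusted p = 5.4e-06 and 3.32e-11). Cyp2f2 rose less, by 0.89 ± 0.22 (adjusted p = 8e-04), with 1587 to 1817 TPM in WT P21 against 492 to 1069 TPM in WT P0 libraries.

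Cyp2e1, the ethanol- and acetone-inducible enzyme, was low at birth, with 2.26, 2.40, 2.36 and 0.83 TPM in Kir P0 and 0.25, 1.25, 2.10 and 1.34 TPM in WT P0 libraries. It stood at 29.01, 24.02 and 14.78 TPM in Kir P21 and 14.4, 18.2 and 21.1 TPM in WT P21 libraries. The log2 fold change was 3.46 ± 0.34 in Kir and 4.02 ± 0.37 in WT (adjusted p = 3.44e-10 and 5.63e-11). Cyp2s1, an epithelial P450, fell at P21 by 0.59 ± 0.25 on the log2 scale in WT (adjusted p = 0.0465), but its libraries overlapped, at 20.7 to 27.4 TPM in WT P21 and 15.2 to 45.2 TPM in WT P0, and the call did not hold under upper-quartile scaling (adjusted p = 0.072). Cyp2a12, a steroid-hydroxylating enzyme best known from liver, was close to the detection limit, with 8 counts in WT P21 and 38 counts in WT P0 libraries, a ratio of 0.255 after scaling to library size (95% interval 0.103 to 0.554, counting error only). Its fall was no longer called without WT P0 replicate 3 or WT P21 replicate 1 (adjusted p = 0.0817 and 0.105).

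Of the CYP2C, CYP2D and CYP2J genes 8 were members and 4 were tested. In WT 3 CYP2J genes rose and none of the 4 fell, beside 24% of all genes that rose and 26.8% that fell. Cyp2j12 had 8.04, 4.54 and 8.09 TPM in Kir P21 and 9.49, 5.90 and 9.86 TPM in WT P21 libraries, against 0.80, 0.32, 0.33 and 0.31 TPM in Kir P0 and 0.42, 0.52, 0.23 and 1.06 TPM in WT P0 libraries (log2 fold change 3.62 ± 0.32 in WT, adjusted p = 3.56e-11). Cyp2j6, the most abundant of them, rose by 1.05 ± 0.19 and Cyp2j9 by 0.58 ± 0.18 (adjusted p = 2.83e-05 and 0.00622). Cyp3a13, an intestinal and hepatic drug-metabolising enzyme in mouse, was the only CYP3A member of 7 symbols. It had 12.9, 17.8 and 10.5 TPM in Kir P21 and 16.55, 21.19 and 13.97 TPM in WT P21 libraries, against 1.54, 2.22, 1.42 and 2.31 TPM in Kir P0 and 0.99, 0.86, 0.82 and 0.66 TPM in WT P0 libraries. Its log2 fold change was 2.81 ± 0.27 in Kir and 4.21 ± 0.30 in WT (adjusted p = 2.77e-10 and 2.17e-13).

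Of the 10 CYP4 genes, 3 rose and 1 fell in WT, beside 24% of all genes that rose and 26.8% that fell. Cyp4b1 had 145, 141 and 116 TPM in Kir P21 and 125, 107 and 145 TPM in WT P21 libraries, against 22.4, 18.2, 17.2 and 15.8 TPM in Kir P0 and 10.8, 17.4, 28.6 and 21.7 TPM in WT P0 libraries. Cyp4f15 averaged 69.2 ± 2.98 TPM in Kir P21 and 56.1 ± 3.28 TPM in WT P21 libraries (SD, n = 3 each), against 8.77 ± 3.30 TPM in Kir P0 and 9.07 ± 2.45 TPM in WT P0 libraries (SD, n = 4 each). Cyp4f13, which hydroxylates leukotrienes in mouse, also rose, by 0.94 ± 0.12 in WT (adjusted p = 1.11e-07). Cyp4f17 fell by 0.47 ± 0.20 on the log2 scale (adjusted p = 0.0429), a call that did not hold without the low-count filter (adjusted p = 0.128) or with upper-quartile scaling (adjusted p = 0.0822). Of the 6 genes of the Cyp4f cluster on chromosome 17, all tested, 2 thus rose and 1 fell in WT. Cyp4v3, the most abundant CYP4 gene, had a log2 difference of 0.34 ± 0.21 in WT (adjusted p = 0.182) and rose by 0.75 ± 0.21 in Kir (adjusted p = 0.00394).

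The remaining families act mostly on the body's own signalling molecules. Cyp27a1, the mitochondrial sterol 27-hydroxylase of bile acid synthesis, rose, with 42.5 ± 4.30 TPM in Kir P21 and 38.6 ± 5.03 TPM in WT P21 libraries (SD, n = 3 each), against 5.81 ± 1.30 TPM in Kir P0 and 5.51 ± 1.51 TPM in WT P0 libraries (SD, n = 4 each). The log2 fold change in WT was 2.87 ± 0.19 (adjusted p = 5.92e-14). Cyp39a1 rose by 0.59 ± 0.16 (adjusted p = 0.00266). Cyp46a1 and Cyp7b1, the cholesterol 24-hydroxylase and the oxysterol 7-alpha-hydroxylase, did not pass the test in either genotype. Cyp20a1 had a log2 difference of 0.13 ± 0.09 in WT (adjusted p = 0.27), with library values of 23.9 to 32.6 TPM in WT P21 and 22.4 to 23.1 TPM in WT P0.

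The steroid genes were low. Cyp19a1, the aromatase that makes oestrogens, had 1.24, 2.09 and 1.30 TPM in Kir P21 and 0.36, 0.60 and 0.97 TPM in WT P21 libraries, against 0, 0, 0.10 and 0 TPM in Kir P0 and 0.08, 0, 0 and 0 TPM in WT P0 libraries. In counts, it had 59 in Kir P21 against 2 in Kir P0, a ratio of 39.7 after scaling (95% interval 10.5 to 336), and 38 in WT P21 against 5 in WT P0, a ratio of 9.20 (95% interval 3.61 to 29.9, counting error only). Cyp17a1, the 17-alpha-hydroxylase of androgen synthesis, had 6 counts in WT P21 against 45 in WT P0, a ratio of 0.161 (95% interval 0.0563 to 0.379). Its fall was no longer called without WT P21 replicate 2 or 3 (adjusted p = 0.0753 and 0.0694). Cyp2w1, a P450 known from fetal gut and tumours, fell, with 1.05, 1.21 and 3.06 TPM in Kir P21 and 1.47, 1.15 and 1.59 TPM in WT P21 libraries, against 7.78, 7.13, 5.69 and 8.24 TPM in Kir P0 and 2.57, 6.69, 6.86 and 8.91 TPM in WT P0 libraries (log2 fold change -2.85 ± 0.35 in WT, adjusted p = 2.91e-08).

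Other tissues in the dissection also changed with age beside these falls. Their counts are read beside 24% of all genes that rose and 26.8% that fell in WT. Of 9 cartilage and bone genes 5 fell and 4 rose in WT, and their sum ranged from 314 to 761 TPM in Kir P21 and from 219 to 725 TPM in WT P21, against 443 to 2958 TPM in Kir P0 and 84.7 to 2784 TPM in WT P0 libraries. Of 8 tested markers of ciliated respiratory cells 6 fell and 1 rose in WT, with sums of 442.8 to 526.3 TPM in Kir P21 and 461 to 469 TPM in WT P21, against 783 to 956 TPM in Kir P0 and 558 to 1014 TPM in WT P0. Of 4 tested markers of secretory respiratory cells 2 fell and none rose, and of 8 brain neuron genes 5 fell and 2 rose. The sums of these 2 lists did not fall alike. Secretory sums overlapped between the ages, at 7154 to 8386 TPM in WT P21 and 5208 to 10471 TPM in WT P0. In Kir they were 7698 to 9576 TPM at P21 and 7809 to 11303 TPM at P0. Brain neuron sums were 228 to 242 TPM in Kir P21 and 69.0 to 148 TPM in Kir P0. In WT they were 266 to 289 TPM at P21 and 101 to 391 TPM at P0, with a P0 median of 130 TPM. The part of these tissues in the falls of Cyp1b1, Cyp2w1, Cyp17a1, Cyp2a12, Cyp2s1 and Cyp4f17 was not tested.

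**Figure D3:**
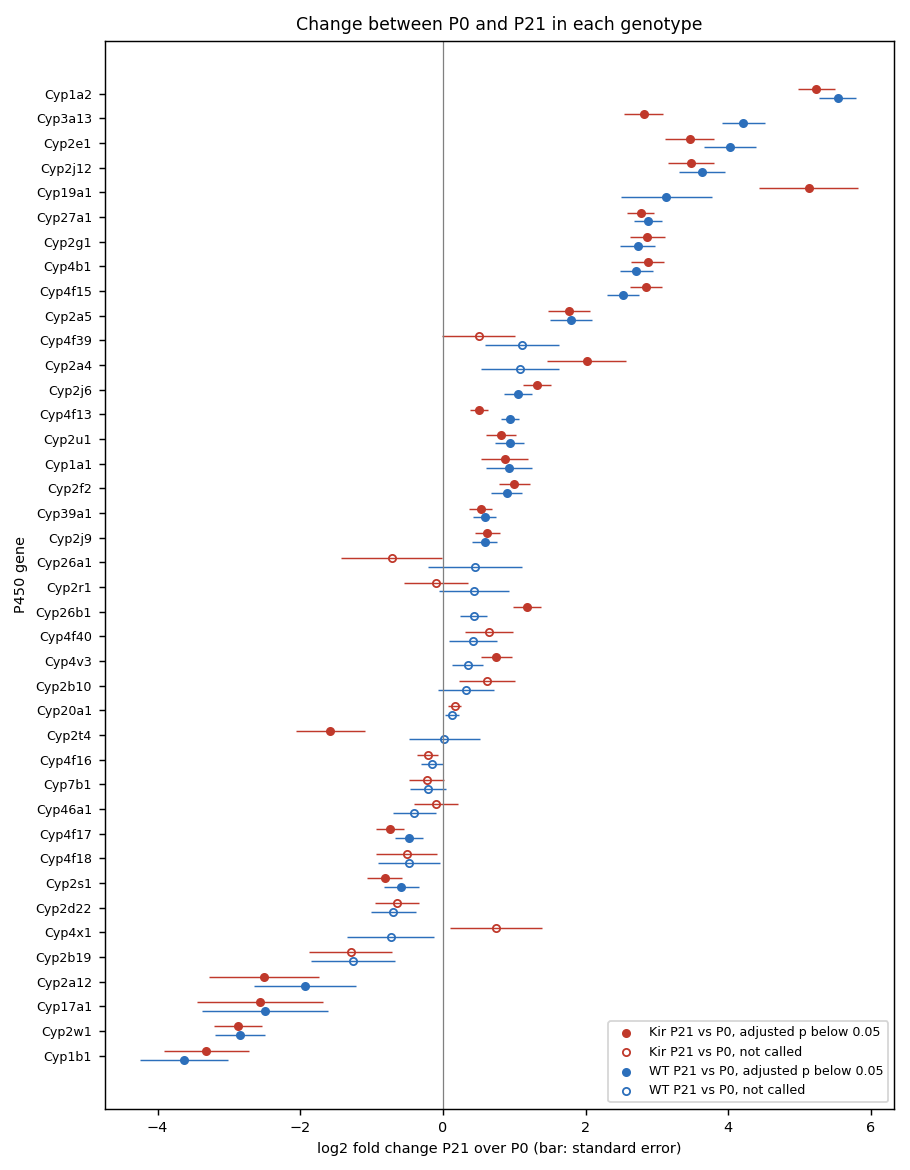
Log2 fold change P21 over P0 of the 40 tested P450 genes in Kir (red) and WT (blue); bars are standard errors, and filled points passed an adjusted p of 0.05. The genes run from Cyp1a2 at the top to Cyp1b1 at the bottom, and the genotypes lie close together for most of them.

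The rise had no single step. At P3 against P0 in WT, 7 members rose and 3 fell (25% of 40, against 20.5% of all genes, of which 8.61% rose and 11.9% fell). The count of 10 was 5 without WT P3 replicate 1, and 5 with WT P0 replicate 3 placed at P3, the age in its stage label. Cyp1a2 had the greatest change, 3.11 ± 0.24 on the log2 scale, followed among the rises by Cyp19a1 (2.25 ± 0.70), Cyp3a13 (1.97 ± 0.31), Cyp4f15 (1.54 ± 0.23) and Cyp2g1 (1.39 ± 0.23). The 3 that fell were Cyp1b1, Cyp2d22 and Cyp2s1, by 1.57 ± 0.53, 1.10 ± 0.32 and 0.84 ± 0.25 on the log2 scale. At P14 against P3 in WT, 13 rose and 3 fell (40%, against 22.6% of all genes, of which 12.9% rose and 9.7% fell), led by Cyp2j12 (2.80 ± 0.33), Cyp2e1 (2.64 ± 0.38) and Cyp4b1 (2.28 ± 0.26); the count of 16 was 10 without WT P3 replicate 2. Neither Cyp4b1, Cyp2e1 nor Cyp2j12 was called at P3 against P0. Cyp4b1 averaged 19.6, 16.7, 18, 27.3, 31.0, 82.1 and 125.7 TPM in WT over the 7 ages from P0 to P21. Most of the rise in these means lay after P10, but P10 and P14 carry unlike prefixes. Cyp1a2 averaged 11.1, 103.9, 181.3, 186.6, 287.7, 345.6 and 537.9 TPM at the same ages, each mean above the one before. Steps between ages of unlike prefix were not tested for either gene. Cyp2w1, by contrast, averaged 6.26, 7.44, 7.44, 4.93, 5.45, 1.92 and 1.40 TPM and fell by 2.28 ± 0.34 on the log2 scale at P14 against P3 (adjusted p = 6.36e-06).

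At P21 against P14 in WT no member passed the test, beside 0.0452% of all genes; 8 members had an unadjusted p below 0.05, and DESeq2 called 1 member, Cyp27a1 (log2 0.81, adjusted p = 0.0303). At P10 against P5, both with the prefix cry6, 3 rose and none fell (7.5%, against 1.93% of all genes called and 0.607% that rose): Cyp2e1 (1.71 ± 0.35), Cyp3a13 (1.29 ± 0.28) and Cyp2j12 (1.09 ± 0.30), with adjusted p of 0.00446, 0.0074 and 0.0478. DESeq2 also called Cyp1a1 and Cyp4b1, limma on log2(TPM + 0.1) called none, and none was called without WT P5 replicate 1. Levels at P7 differed between prefixes for some members. Cyp2e1 had 17.2 TPM in the cry4, 4.53 and 4.93 TPM in the cry6 and 15.4 TPM in the cry3 library of Kir, and 10.7, 6.23, 4.74 and 6.75 TPM in the WT libraries in the same order. Ages with unlike prefixes were therefore not set against each other by a test.

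**Figure D4:**
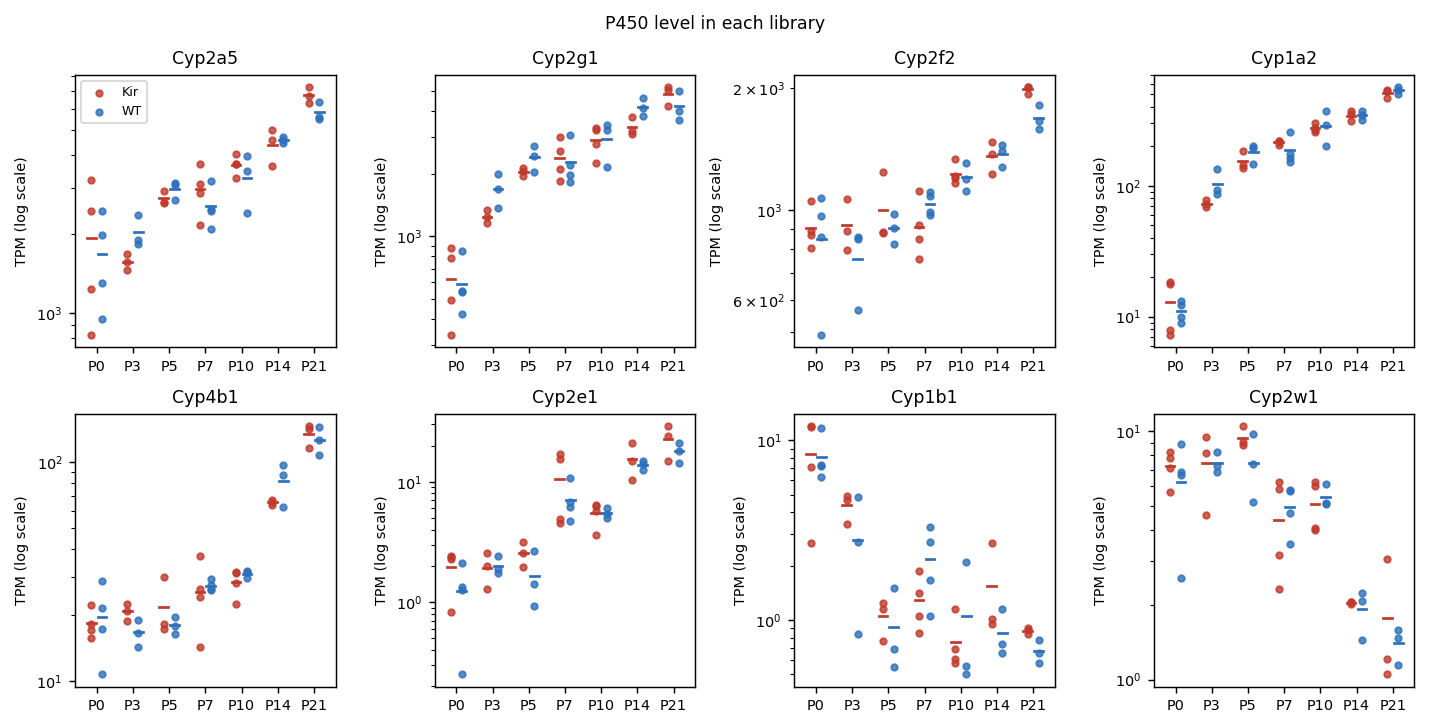
TPM (log scale, with a scale of its own in each panel) of 8 P450 genes in each library by age, Kir in red and WT in blue, with a bar at the group mean. Cyp2a5, Cyp2g1, Cyp2f2, Cyp1a2, Cyp4b1 and Cyp2e1 are higher at P21 than at P0, and Cyp1b1 and Cyp2w1 lower; the Kir and WT points lie close together at most ages.

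The age changes of Kir and WT were alike in which members moved. All 17 members that rose and all 6 that fell in WT also did so in Kir, that is 23 of 40 called in 1 direction in both, against 39% of all genes. The 4 members called in Kir alone were Cyp26b1 (log2 1.18 in Kir and 0.43 in WT), Cyp2a4 (2.02 and 1.08), Cyp4v3 (0.75 and 0.34) and Cyp2t4 (-1.58 and 0.02). The difference between the genotypes' changes was called for none of the 40 members, beside 0.286% of all genes; 4 members had an unadjusted p below 0.05. The lowest p of these was that of Cyp3a13, with a difference of -1.40 ± 0.40 on the log2 scale (adjusted p = 0.213), and the largest difference among the 4 was that of Cyp2t4, -1.60 ± 0.69. Without Kir P0 replicate 4 the Cyp2t4 change in Kir was -0.48 ± 0.38, no longer called (adjusted p = 0.327), and the difference was -0.50 ± 0.53 (adjusted p = 0.911).

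Kir and WT libraries of the same age differed in few P450 genes. Averaged over the 7 ages, 1 of 40 members was called, lower in Kir (2.5%, against 10.5% of all genes called and 7.43% lower in Kir), and 5 members had an unadjusted p below 0.05. The 95% intervals of the abundant members were narrow: the log2 difference Kir minus WT was -0.04 for Cyp1a2 (-0.22 to 0.13), -0.08 for Cyp2g1 (-0.27 to 0.10), 0.13 for Cyp2a5 (-0.10 to 0.36), 0.07 for Cyp2f2 (-0.10 to 0.24) and 0.01 for Cyp4b1 (-0.17 to 0.19). For Cyp2e1 it was 0.31 (0.04 to 0.57), with an adjusted p of 0.144. Limma on log2(TPM + 0.1) also called Cyp19a1, higher in Kir by 0.64 (adjusted p = 0.0332). Within these libraries other gene groups did differ: all 12 mature sensory neuron markers were lower in Kir, 7 of 8 macrophage genes and all 10 interferon-stimulated genes were higher, and 1 of 15 sustentacular markers was lower. Mature neuron markers summed to 5171 to 5454 TPM in Kir and 6298 to 6609 TPM in WT at P21, macrophage genes to 115 to 137 TPM in Kir and 72.0 to 98.2 TPM in WT, and interferon-stimulated genes to 509 to 1199 TPM in Kir and 51.1 to 56.6 TPM in WT. Their part in the P450 values was not tested.

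The member called over the 7 ages was Cyp2u1, a long-chain fatty-acid hydroxylase known from brain. It was lower in Kir by 0.34 ± 0.08 on the log2 scale (adjusted p = 0.00284), and its group mean was lower in Kir at 7 of 7 ages. At P21 it had 3.93, 5.13 and 4.05 TPM in Kir libraries and 5.46, 7.62 and 7.15 TPM in WT libraries. At P5 it had 2.21, 2.33 and 2.17 TPM in Kir libraries and 4.35, 3.53 and 3.42 TPM in WT libraries. The genotypes did not overlap at P5, P14 or P21 and overlapped at P0, P3, P7 and P10; none of the 7 single ages passed the test. Over the alternatives the log2 difference ran from -0.40 to -0.30. An antisense gene, 4930534D22Rik, overlaps 548 exon bases of Cyp2u1 at a mean of 0.826 TPM, and without a stated strand setting their reads cannot be told apart.

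Cyp26b1, an enzyme that clears retinoic acid, was called at 2 single ages in opposite directions. At P3 it had 3.73, 1.92 and 4.02 TPM in Kir libraries and 6.45, 5.30 and 6.54 TPM in WT libraries, a log2 difference of -0.92 ± 0.21 (adjusted p = 0.031). At P21 it had 8.87, 11.39 and 13.02 TPM in Kir libraries and 7.42, 6.27 and 5.29 TPM in WT libraries, a log2 difference of 0.93 ± 0.21 (adjusted p = 0.0111). Kir libraries were all below WT libraries at P3 and all above them at P21. It was the only member called at either age, beside 0.703% of all genes at P3 (0.527% lower in Kir) and 0.743% at P21 (0.647% higher in Kir). The difference varied among the 7 ages (edgeR test of genotype by age, added after the values were seen, adjusted p = 0.0103, 0.381% of all genes called). It was 1.85 ± 0.295 greater at P21 than at P3 on the log2 scale (edgeR test, adjusted p = 0.00315, 0.0502% of all genes called). P3 and P21 are the 2 ages at which Cyp26b1 was called, and they were picked after the values were seen. The adjusted p does not cover that choice and adds no separate support to the 2 calls. In Kir Cyp26b1 averaged 4.88, 3.22, 4.76, 6.06, 7.35, 8.60 and 11.1 TPM from P0 to P21, and in WT 4.09, 6.10, 6.99, 6.50, 8.18, 10.1 and 6.33 TPM, so WT was at its highest at P14. The calls rest on few libraries: at P21 the adjusted p was 0.161 without Kir replicate 3, 0.147 without WT replicate 3 and 0.0679 without WT replicate 2. At P3 it was 0.0591 and 0.266 without Kir replicates 1 and 2, and 0.104 without WT replicate 1 or 3. With WT P0 replicate 3 placed at P3 it was 0.0676 (log2 difference -0.83). Kir replicate 3 at P3 and Kir replicates 1 and 2 at P21 are among the libraries with low Kcnj2. Without those libraries the log2 difference was -1.09 at P3 and 1.23 at P21, where Kir replicate 3 alone was left. Limma on log2(TPM + 1) called Cyp26b1 at neither age (adjusted p = 0.112 at P21 and 0.0867 at P3). Its relative Cyp26a1 averaged 0.576 TPM and was not called in any comparison.

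**Figure D5:**
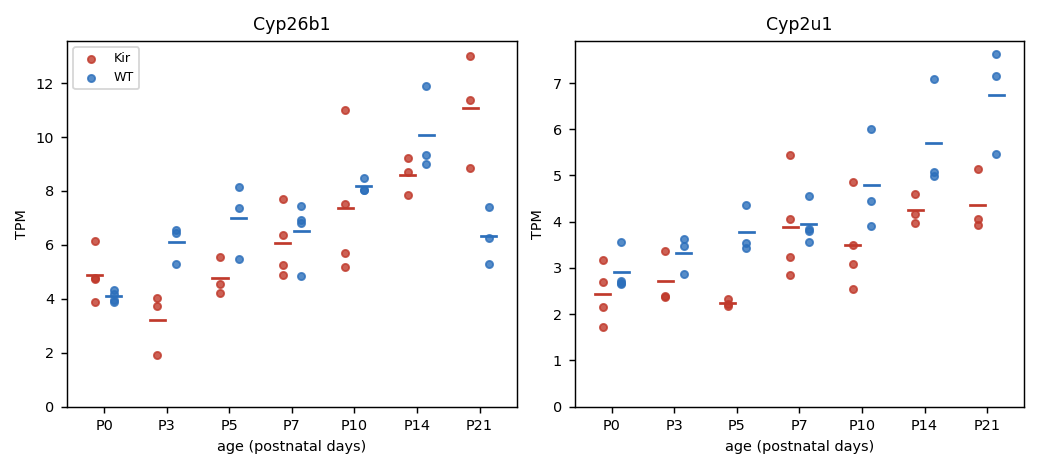
TPM of Cyp26b1 (left) and Cyp2u1 (right) in each library by age (postnatal days), Kir in red to the left of WT in blue, with a bar at the group mean. Cyp26b1 in Kir lies below WT at P3 and above it at P21, and Cyp2u1 has its Kir mean below its WT mean at every age.

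At P0, 2 members were higher in Kir and none lower (5%, against 1.09% of all genes called and 0.386% higher in Kir). Cyp3a13 had 1.54, 2.22, 1.42 and 2.31 TPM in Kir libraries and 0.99, 0.86, 0.82 and 0.66 TPM in WT libraries (log2 difference 1.17 ± 0.30, adjusted p = 0.045), without overlap. The adjusted p rose to 0.235 without Kir replicate 4 and to 0.0565 and 0.0713 without Kir replicates 1 and 2, and it was 0.18, 0.0697 and 0.0726 without WT replicates 1, 2 and 4. Cyp2t4, a CYP2 gene without a settled role, had 0.71, 1.11, 0.87 and 8.73 TPM in Kir libraries and 1.03, 0.64, 0.14 and 0.20 TPM in WT libraries (log2 difference 1.72 ± 0.44, adjusted p = 0.0438). Over the 47 libraries it averaged 0.760 TPM, but 3.13 by counts per kilobase of exon scaled to the same total, and the test used the counts. Egln2, on the opposite strand at a mean of 90.6 TPM, overlaps 11 of its exon bases, and no strand setting is stated. The Cyp2t4 call rests on Kir replicate 4, without which the log2 difference was 0.62 (adjusted p = 0.797). Leaving out any WT library also ended its call, with adjusted p of 0.0641 to 0.116, as did placing WT P0 replicate 3 at P3, the age in its stage label, for both genes (adjusted p = 0.111 for Cyp3a13 and 0.0819 for Cyp2t4). No member was called at P5, P7, P10 or P14, beside 0.105%, 0.0903%, 3.13% and 1.17% of all genes; 2, 1, 0 and 1 members had an unadjusted p below 0.05, and DESeq2 called none.

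Genes that serve P450 enzymes changed in both directions with age, beside 24% of all genes that rose and 26.8% that fell in WT. Of 9 electron partners, 5 rose and 4 fell in WT at P21 against P0, among them Cyb5r1, a cytochrome b5 reductase (1.33 ± 0.12), and Cyb5a, cytochrome b5 (1.12 ± 0.14). Por, the P450 reductase, rose by 0.65 ± 0.21 in Kir and by 0.50 ± 0.21 in WT (adjusted p = 0.0103 and 0.0466). Of 8 haem synthesis genes 4 rose and 1 fell, led by Alas1, the rate-limiting enzyme outside red blood cells (1.53 ± 0.18, adjusted p = 1.33e-08). Of 19 tested known regulators of P450 genes, 2 rose and 5 fell. Nr1i2, the pregnane X receptor, fell by 3.00 ± 0.65 on the log2 scale, Foxa2 and Foxa1, pioneer factors of endoderm, by 2.94 ± 1.12 and 2.33 ± 0.32, and Nfe2l2, the oxidative stress factor NRF2, rose by 0.78 ± 0.13. Nr1i2 and Foxa2 were close to the detection limit, with medians of 0.66 and 0.06 TPM over the 47 libraries. Foxa2 was listed at 0 in 19 of them, while the median of Foxa1 was 18.4 TPM.

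Other enzymes of foreign-compound metabolism, and transporters and retinoid genes, moved in both directions, read beside the 24% of all genes that rose and the 26.8% that fell in WT. Of 21 tested conjugating enzymes 11 rose and 3 fell in WT, among them the glutathione transferases Gsta2 (3.40 ± 0.36) and Gstt1 (2.05 ± 0.24) and the glucuronosyltransferase Ugt1a7c (2.88 ± 0.34), while Gsto1 fell by 1.95 ± 0.51 on the log2 scale. Of 31 other oxidising and hydrolysing enzymes 17 rose and 6 fell, among them the flavin monooxygenase Fmo5 (2.93 ± 0.21) and the carboxylesterase Ces1f (2.16 ± 0.30). The aldehyde oxidase gene Aox4 fell by 2.64 ± 0.75. Of 8 tested xenobiotic transporters 3 rose, among them Abcc3 (1.26 ± 0.19), and 1 fell, Abcg2, by 1.41 ± 0.25. Of 10 retinoid enzymes, binders and receptors, the pathway in which Cyp26b1 acts, 2 rose and 3 fell, among them the retinol dehydrogenase Rdh10, which fell by 1.42 ± 0.16 on the log2 scale. Between genotypes, averaged over ages, beside 10.5% of all genes called, 1 of 9 electron partners, 1 of 19 regulators and 1 of 8 transporters were lower in Kir, 1 of 10 retinoid genes and 1 of 31 other oxidising and hydrolysing enzymes were higher and 1 of each lower, and no haem synthesis or conjugating enzyme gene was called.

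The 6 members not tested were Cyp2j13, Cyp2c65, Cyp2c23, Cyp11a1, Cyp27b1 and Cyp2j8. Each had between 108 and 317 counts over the 47 libraries together and at most 0.95 TPM in any library. Cyp27b1, which makes active vitamin D, was listed at 0 in 7 libraries, and Cyp11a1, the side-chain cleavage enzyme that starts steroid synthesis, at 0 in 12. They did not pass the filter on low counts, so differences between groups in these genes were not tested in the main fit.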

How the data were processed

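Polyadenylated RNA of mouse olfactory epithelium had been extracted in TRIzol and sequenced, per the labels' protocols. The authors deposited whole-number counts per gene and, in a separate table, TPM per gene. The tools named in the submitters' processing notes are STAR 2.6.1c, RSEM and bcl2fastq 2.18, with the build mm10; no source used here states the strand setting. Among the deposited counts, 4 lines name no gene and stayed out: unmapped (1.31% to 33.49% of a library), multiply mapped (5.17% to 20.58%), outside genes (3.79% to 12.28%) and ambiguous reads (2.91% to 3.80%). Near-identical copies such as Cyp2a5 and Cyp2a4 therefore lack their multiply mapped reads in the counts. No 2 replicates were duplicates: over 57 pairs within groups the counts differed by at least 8.09 times the variance of sampling.

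Levels per gene are the authors' TPM. Differences were tested on the counts with edgeR 4.0.16 in R 4.3.3 (quasi-likelihood F tests, two-sided, TMM, filterByExpr), in a single fit of all 47 libraries with a mean per genotype and age and the title prefix as covariate. P-values were adjusted by Benjamini-Hochberg over the 19927 genes left; calls were made at adjusted p below 0.05. Log2 fold changes carry standard errors, and intervals are at 95%. The difference averaged over ages is the mean of the 7 within-age differences. Only ages with the same prefix were compared with each other. Intervals of count ratios cover counting error only. WT P0 replicate 3, whose title gives P0 but whose stage label gives P3, was placed at P0. The P450 genes, the gene lists and the tests were chosen with earlier results of these data known. Members named with values are Cyp2g1, Cyp1a2, Cyp4b1 and Cyp2e1, the 10 most abundant, every member called between genotypes, and the 10 called members with the greatest change in each direction between P0 and P21 in WT; other members shown were chosen for their role or after their values were seen. At P3 all same-numbered Kir and WT libraries deviated together from their group means (correlations 0.172, 0.21 and 0.286, a pairing read from the data). At no other age with numbered titles in both genotypes did all of them do so. Alternatives were limma 3.58.1 on log2(TPM + 1) or log2(TPM + 0.1), DESeq2 1.42.0, other scaling and filters, no prefix term, a replicate block, the other placing of WT P0 replicate 3 and leaving out libraries. Gene lists not printed elsewhere held, in WT at P21 against P0, 1 rise among 6 red blood cell genes, 3 rises and 1 fall among 8 immature neuron genes, 12 rises among 12 mature neuron genes, 4 falls among 8 macrophage genes, 2 falls among 10 interferon-stimulated genes and 1 fall among 3 tested hepatocyte genes. Among all genes 24% rose and 26.8% fell in that comparison. The edgeR step was tested on simulated data. Start regions are RefSeq windows matched by gene, 37 of 46 members having an entry.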

Additional observations from a re-analysis of the deposited data

Results flagged for a closer look

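For the 24 members named by rule and the summed P450 level, 125 sets of values from groups of 4 libraries were looked at for a library far from the other 3, of which chance gives about 1 in 20, and 8 were found. In Kir at P0, replicate 4 had 0.83 TPM of Cyp2e1 (the others 2.26, 2.36 and 2.40 TPM) and 8.73 TPM of Cyp2t4 (the others 0.71, 0.87 and 1.11 TPM). Replicate 1 of that group had 0.80 TPM of Cyp2j12 (the others 0.31 to 0.33 TPM) and 1.05 TPM of Cyp2a12 (the others 0.25 to 0.30 TPM), and replicate 3 had 0.10 TPM of Cyp19a1, listed at 0 in the others. In WT at P0, replicate 4 had 3.57 TPM of Cyp2u1 (the others 2.65 to 2.72 TPM), and replicate 1 had 0.08 TPM of Cyp19a1, listed at 0 in the others. In Kir at P7, replicate 3 had 1.01 TPM of Cyp2t4 (the others 0.55 to 0.61 TPM).

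The Kir minus WT difference of Cyp26b1 varied among the 7 ages, in a test added after its values were seen (edgeR quasi-likelihood test of genotype by age, adjusted p = 0.01031; 0.381% of all genes were called in it). The difference at P21 exceeded that at P3 by 1.853 ± 0.295 on the log2 scale (edgeR test, adjusted p = 0.003153, 0.0502% of all genes called). These ages were picked after the values were seen, as those at which Cyp26b1 was called. The adjusted p does not cover that choice.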

How the results depend on the processing

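No named member changed direction under any alternative run in the comparison that named it. Of these results over all alternatives, 420 kept their side of the threshold, 66 lost the call and 1 gained it, Cyp4v3 in WT at P21 against P0 without WT P0 replicate 2 (log2 0.53, adjusted p = 0.0459). The cause was not tested for any of them. Counts of members called between genotypes moved most. Averaged over ages the count was 2 in place of 1 under each of the 3 limma settings, which added Cyp19a1. At P0, where it was 2, it was 1 without the prefix term, 1 without the 5 Kir libraries with low Kcnj2, and 0 under each limma setting, with WT P0 replicate 3 placed at P3 and with the replicate block. At P3 the count of 1 became 0 under each limma setting and with that placing, and at P21 it became 0 under each limma setting. In WT the count at P3 against P0 was 5 in place of 10 with WT P0 replicate 3 placed at P3, and that at P21 against P14 was 1 in place of 0 by DESeq2. At P10 against P5, where it was 3, it became 1 by limma on log2(TPM + 1) with or without the filter, 0 on log2(TPM + 0.1) and 5 by DESeq2. Leaving out 1 library at a time gave 1 to 2 calls averaged over ages, 0 to 2 at P0, 0 to 1 at P3, 0 to 1 at P21, 5 to 11 for WT P3 against P0 (5 without WT P3 replicate 1), 10 to 16 for WT P14 against P3 (10 without WT P3 replicate 2) and 0 to 3 for WT P10 against P5 (0 without WT P5 replicate 1, 1 without WT P10 replicate 2 or 3). The ranges for P21 against P0 were 23 to 29 in Kir and 19 to 25 in WT. The 2 calls averaged over ages came without Kir P10 replicate 3 or 4, Kir P21 replicate 3 or WT P0 replicate 4, each adding Cyp4f16, without WT P5 replicate 2, adding Cyp2e1, and without WT P7 replicate 2, adding Cyp3a13. Leaving out the 2 Kir P10 libraries with most unmapped reads, a choice made after seeing the data, left 1 call averaged over ages and 0 at P10. Among the falls in WT, Cyp2s1 lost its call in 11 alternatives and Cyp4f17 in 11. For Cyp2s1 the adjusted p was 0.251 and 0.124 without WT P0 replicates 3 and 4 and 0.106, 0.136 and 0.0718 without WT P21 replicates 1, 2 and 3. For Cyp4f17 it was 0.0619, 0.0639 and 0.0864 without WT P0 replicates 1, 3 and 4 and 0.161 and 0.19 without WT P21 replicates 2 and 3. Summed as CPM from the counts, the P450 level differed from the TPM sum by more than 1 SD of that TPM sum in 4 groups. These were Kir P3 (4623), Kir P5 (6042), WT P14 (10232) and Kir P21 (14199), against 4119, 6263, 10982 and 14788 TPM. CPM is not corrected for length, so the 2 sums are on unlike scales. The rule also depends on the SD, which was as low as 118 TPM in Kir P5 and 182 TPM in Kir P21. Replicate numbers occur in both genotypes at P0, P3, P14 and P21, and same-numbered libraries correlated between -0.192 and 0.304. At P3 all 3 same-numbered pairs correlated above 0.1. At P0, P14 and P21 not all did, and so few correlations cannot settle whether the numbers pair the libraries. A replicate block at P3 alone, added after seeing the data, kept the 1 call there. With the replicate block the P0 count was 0 (Cyp3a13 adjusted p = 0.0786, Cyp2t4 0.187), and Cyp2s1 and Cyp4f17 were not called (0.0881 and 0.102). Members under 1 TPM are limited by depth, with few counts per library.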

Other observations

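Cyp4f39, known in mouse for making the long-chain lipids of the skin barrier, had 0.67, 0.79, 0.45 and 8.13 TPM in the 4 Kir libraries at P0 and 0.94, 1.09, 2.98 and 1.62 TPM in the WT libraries; the high value lies in replicate 4, the library that also held 8.73 TPM of Cyp2t4. Cyp2b19, an epoxygenase known from mouse keratinocytes, had 4.52, 1.03, 1.51 and 0.77 TPM in Kir and 1.31, 1.14, 1.18 and 3.17 TPM in WT at P0. At birth Cyp2a5 and Cyp2g1 were high in the same libraries: Kir replicates 2 and 3 and WT replicate 2 had the most of both among the P0 libraries of their genotype. Cyp2b10, the classic target of the receptor CAR in liver, averaged 12.5 TPM over the series and passed the test in no comparison reported here. In WT at P21 against P0 its log2 difference was 0.32 ± 0.39. These members were chosen after their values were seen.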
